A study of Homo sapiens with 94 samples.

Results

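The 2 cages compared here held 10 mice that received the dosing vehicle and no drug, 5 in each cage group, and 5 untreated mice of a further cage group served as the reference. Members were all libraries that the labels place in these cage groups of the 3-6 h study, 15 of the 94 libraries of the series, with 1 tumor from 1 mouse per library. The tumors were grown from the human mesothelioma line NCI-H226, an established line in which NF2 is deleted, in the right flank of female CB17 SCID mice (6 to 8 weeks old), which lack T and B lymphocytes. Mice were allotted at random to cage groups at a tumor volume near 300 mm3. Both vehicle cages received a single oral dose of 20 mL/kg of ethanol, Solutol and injectable glucose of pH 3 (12.5, 12.5 and 75%), and the untreated cage received no compound. All 15 tumors therefore share the cell line, the NF2 deletion and the host strain, and 1 cell line stands for the disease. Tumors of this study were taken at 3 h or at 6 h, and the labels do not say which cage belongs to which time, so cage and time of sampling cannot be told apart. Library titles number cage 1 from 41 to 45, cage 2 from 46 to 50 and cage 3 from 81 to 85. What these numbers stand for was not given in the sources used here. The comparison asks how much tumors without drug differ between cages, the background against which a drug effect is read.

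Cells short of oxygen stabilize hypoxia-inducible factors, which bind promoters at a short core motif and raise glucose transporters, glycolytic enzymes and angiogenic factors, and solid tumors are known for such regions. NF-kappaB and interferon signalling raise cytokine genes and antiviral genes, and both can be switched on in tumor cells by their surroundings. FNIP1 binds folliculin (FLCN), and the pair senses nutrients at the lysosome, upstream of the transcription factors TFEB and TFE3. These 2 factors bind E-boxes of the sequence CACGTG, which contains the hypoxia core motif.

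The promoters of 3 genes are shown because the results below turn on them or on their relation to each other. They are FNIP1, which had the smallest p-value between the vehicle cages, FLCN, its partner, and HK2, the largest fold change among the 29 hypoxia and glycolysis genes examined. Sequences are from RefSeq (GRCh38.p14), 5′ to 3′ on the strand of the gene, from 250 bases upstream of a start site up to the first base that GENCODE 29 annotates as an exon. Capitals mark every copy of ACGTG on either strand (ACGTG or CACGT), and the 6 letters CACGTG hold it on both strands. The FNIP1 stretch lies on the minus strand at chr5:131797064-131797267, outside any annotated exon. The FLCN stretch lies on the minus strand at chr17:17237189-17237418 and is also outside exons. The HK2 stretch lies on the plus strand at chr2:74834920-74835169, in an intron of HK2, before the second of its 2 start sites.
FNIP1: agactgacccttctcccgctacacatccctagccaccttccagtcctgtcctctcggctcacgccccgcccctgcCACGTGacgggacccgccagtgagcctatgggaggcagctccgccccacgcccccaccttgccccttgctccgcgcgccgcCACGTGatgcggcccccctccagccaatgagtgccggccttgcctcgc
FLCN: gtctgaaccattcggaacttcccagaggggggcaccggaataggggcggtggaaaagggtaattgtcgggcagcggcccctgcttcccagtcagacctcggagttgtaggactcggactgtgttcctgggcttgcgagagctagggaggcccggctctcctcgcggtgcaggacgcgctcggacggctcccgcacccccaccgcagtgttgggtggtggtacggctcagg
HK2: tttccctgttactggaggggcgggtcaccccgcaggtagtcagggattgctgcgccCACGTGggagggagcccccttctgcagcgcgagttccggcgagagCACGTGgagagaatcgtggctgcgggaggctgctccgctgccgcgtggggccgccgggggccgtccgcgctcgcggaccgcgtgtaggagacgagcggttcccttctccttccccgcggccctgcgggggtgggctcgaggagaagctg
FNIP1 held 2 copies of CACGTG, HK2 held 2 copies, and FLCN held no match in these letters. The first start site of HK2 had ACGTG but no CACGTG in the 250 bases upstream. Among other genes past the threshold, PFKFB4 and HKDC1 held no match there. The promoter of FBXO32, also past the threshold, is not reported here. FNDC3B held 1 match, without CACGTG, at 1 of its start sites and 0 at the other. MAFF held 1 copy of CACGTG at each start site, within annotated exons. Among the 25 hypoxia and glycolysis genes with a promoter in the table, 24 of 37 promoters (64.9%) held ACGTG on either strand in the 250 bases upstream. The share was 21.8% of the 14946 promoters of genes tested and 18.5% of all 35116 promoters. CACGTG was in 8 of the 37 (21.6%), in 8.0% of promoters of genes tested and in 6.34% of all promoters. The list was made of hypoxia and glycolysis genes, so a high share of the hypoxia motif can follow from that choice. These shares use no expression value and describe no difference between the cages. A match is a description of letters and not a binding site.

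Levels were given as FPKM (fragments scaled to transcript length and to the total of the library). The libraries were alike in the number of genes detected but not in depth. In the 15 tumors, 11420 to 11593 genes reached an FPKM of 1, and between 15.7% and 17.7% of the summed FPKM came from 10 genes. Relative depth, estimated from the step size of rarely detected genes, was 0.806 to 1.17 in cage 2, 0.649 to 1.00 in cage 3 and 1.12 to 1.30 in the untreated cage, so cage 3 and the untreated cage did not overlap in depth. The files hold no read counts, so no counting interval could be given. Mesothelial markers that fitted the label included MSLN, CALB2 and WT1, with a median FPKM over the 15 tumors of 259, 639 and 28.1. On the same list of 16, UPK3B and MUC16 were low, with medians of 1.34 and 4.10, and ITLN1 ran from 22.8 to 1305. Some defining markers of other human cell types were at or near 0. PTPRC, the pan-leukocyte antigen, did not exceed an FPKM of 0.497, PECAM1 did not exceed 0.0362, and MS4A1, TYROBP, EMCN, CLDN5, ADIPOQ, HBB and HBA1 were listed at 0 in all 15 tumors. Some genes of those marker lists were abundant all the same, such as KDR at 49.9 to 104, CD68 at 43.6 to 265 and COL1A1 at 392 to 858. Others were detected at lower levels. HBA2, an erythroid gene like HBA1, reached 8.47 and was at 0 in 5 of the 15 tumors. DCN reached 8.41 and RGS5 reached 13.6, each with tumors at 0, and the keratinocyte marker KRT14 read 2.46 to 31.7. Reads of mouse cells may map to human genes, and how they were treated was not given in the sources used here.

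Between the vehicle cages, 6 genes passed the test and all 6 were higher in cage 3. They were FNIP1, FBXO32, MAFF, PFKFB4, FNDC3B and HKDC1. These are 0.0474% of the 12654 genes tested with limma on log2(FPKM + 1), with Benjamini-Hochberg adjustment and a threshold of 0.05 throughout. No gene passed as lower, while 596 genes had a lower value at an unadjusted p under 0.05 (4.71%). At that level 619 genes were higher (4.89%), which made 1215 in both directions (9.6%). The median difference over all genes was -0.01 on the log2 scale, and 48.4% of genes had a positive difference, so neither direction prevailed across the transcriptome. The count rested on single tumors, because 76 genes passed without cage 3 replicate 1 and 1 gene passed without cage 2 replicate 3.

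FNIP1 (ENSG00000217128.11, chr5:131641714-131797017), the folliculin-interacting protein, was the gene with the smallest p-value. Its FPKM was 93.1, 95.1, 96.3, 99.97 and 95.4 in cage 3, and 62.4, 70.9, 71.5, 68.7 and 74.9 in cage 2. The untreated tumors had 65.7, 78.4, 75.1, 75.8 and 69.1. Every tumor of cage 3 stood above all 10 tumors of the other cages, whose ranges overlapped. The log2 difference between the vehicle cages was 0.46 ± 0.08 (SE of the fit, limma adjusted p = 0.00448), from a mean FPKM of 69.7 ± 4.65 to one of 95.97 ± 2.52 (SD, n = 5 each).

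FBXO32 (ENSG00000156804.7, chr8:123497889-123541206) encodes atrogin-1, a ubiquitin ligase subunit raised by FOXO factors in wasting muscle. It had an FPKM of 8.81, 12.2, 13.9, 11.98 and 19.7 in cage 3, against 5.94, 2.81, 1.87, 4.61 and 1.66 in cage 2. The 5 untreated tumors read 1.30, 3.11, 1.14, 6.75 and 3.54. Again no tumor of cage 3 overlapped any tumor of the other cages. The log2 difference of cage 3 from cage 2 was 1.77 ± 0.32 (limma adjusted p = 0.0114).

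MAFF (ENSG00000185022.11, chr22:38200767-38216511), a small MAF transcription factor that responds to stress, read 4.92, 4.98, 7.29, 10.5 and 7.53 in cage 3. In cage 2 its FPKM was 0.848, 1.55, 0.71, 2.56 and 3.84. The vehicle cages did not overlap, but the untreated tumors, from 2.36 to 7.53, lay across both. The log2 difference was 1.54 ± 0.29 (limma adjusted p = 0.0166).

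PFKFB4 (ENSG00000114268.11, chr3:48517684-48562015), a kinase and phosphatase that sets the level of a glycolytic activator, read 13.1, 17.0, 14.0, 17.3 and 14.3 in cage 3. Cage 2 had 5.01, 7.10, 2.63, 7.42 and 2.72, and the untreated cage had 7.13, 7.23, 4.41, 9.63 and 5.16. Cage 3 stood clear of both other cages, and those overlapped each other. The log2 difference between vehicle cages was 1.52 ± 0.31 (limma adjusted p = 0.0348).

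FNDC3B (ENSG00000075420.12, chr3:172039628-172401665), a membrane protein with fibronectin type III domains, was by far the most abundant of the 6. Its FPKM was 356, 468, 414, 418 and 396 in cage 3, and 313, 304, 269.5, 308 and 313 in cage 2. The untreated range was 277 to 323, below every tumor of cage 3. The log2 difference of 0.44 ± 0.09 (limma adjusted p = 0.0348) was the smallest of the 6. HKDC1 (ENSG00000156510.12, chr10:69220303-69267559), a hexokinase, read 6.65, 7.00, 5.25, 6.20 and 2.43 in cage 3 against 1.74, 1.80, 1.12, 2.26 and 2.70 in cage 2. Its groups overlapped at cage 3 replicate 5, and the log2 difference was 1.12 ± 0.23 (limma adjusted p = 0.0441).

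**Figure D1:**
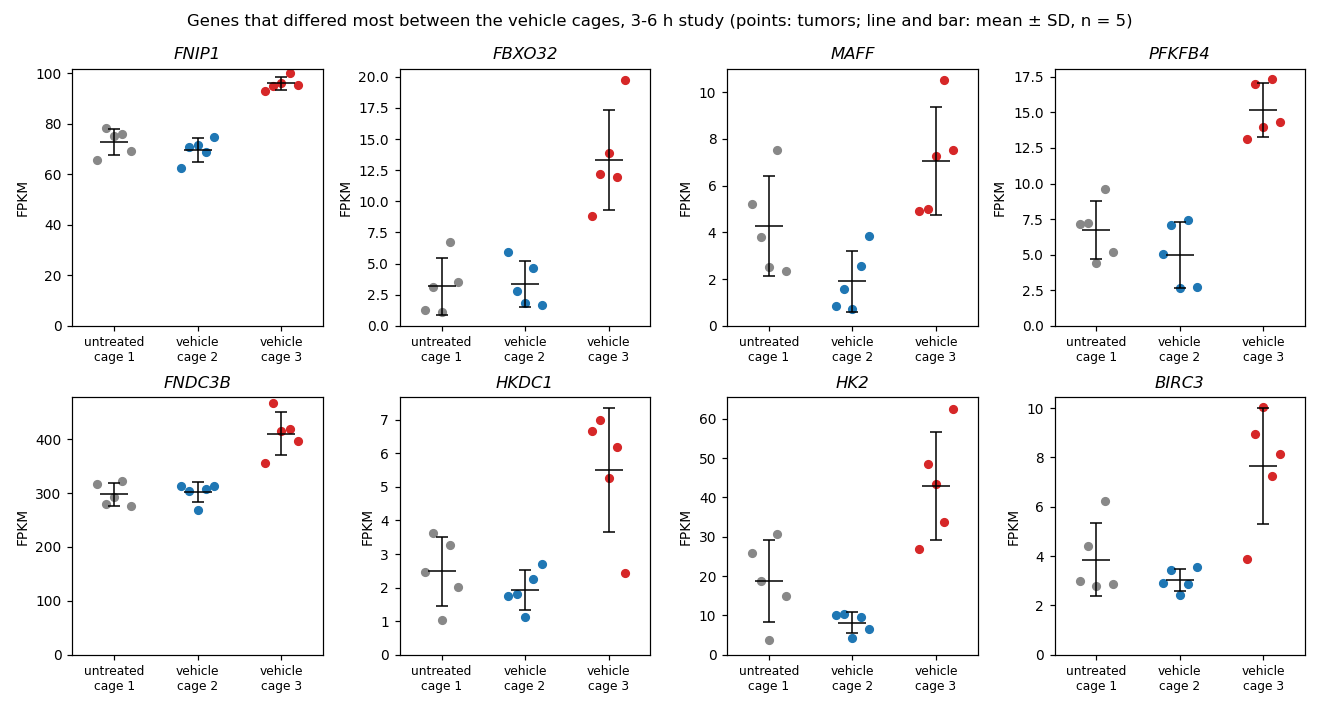
FPKM of 8 genes in each tumor of untreated cage 1 (grey), vehicle cage 2 (blue) and vehicle cage 3 (red), with the mean and SD of 5 tumors and axes from 0. The 5 red points of FNIP1, FBXO32, PFKFB4 and FNDC3B lie above all other points, whereas red and grey overlap for MAFF, HKDC1, HK2 and BIRC3.

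The next 10 genes by p-value did not pass, with limma adjusted p-values from 0.0553 for BIRC3 to 0.0844 for RLF. Of these, 9 had higher values in cage 3, and GPATCH11 had lower ones. BIRC3, an inhibitor of apoptosis induced by NF-kappaB, read 3.89, 8.96, 10.0, 7.24 and 8.12 in cage 3 and 2.42 to 3.55 in cage 2 (log2 difference 1.06). GPATCH11, a protein with a G-patch domain, read 1.57 to 4.33 in cage 3 and 7.46 to 9.51 in cage 2 (log2 difference -1.25, adjusted p = 0.0798), without overlap. The zinc finger gene ZNF160 differed by 0.59 and TIFA, an adaptor of NF-kappaB signalling, by 1.28. LGALS3 (galectin-3) differed by 0.52, the autophagy receptor CALCOCO2 by 0.44, the glycogen-targeting subunit PPP1R3B by 1.15 and RLF by 0.49. In all, 90 genes were higher in cage 3 without overlap (0.711% of genes tested) and 94 were lower (0.743%).

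Genes of the hypoxia and glycolysis list had higher values in cage 3 almost throughout. Of 29 members, all tested, 28 had a positive difference, 1 passed the test (PFKFB4), and 23 were higher and 0 lower at an unadjusted p under 0.05, where 4.89% of all genes were higher. The median difference of the list was 0.65 on the log2 scale, beside -0.01 over all genes. Without overlap between the vehicle cages were 7 members, namely PFKFB4, HK2, SLC2A3, SLC2A1, EGLN3, PDK1 and ENO2, where 0.711% of all genes were higher without overlap. The number of calls depended on the libraries that set the spread. With the 91 libraries of the series that had at least 10000 genes at an FPKM of 1, the test called 43 genes. Of these, 8 were on this list (the 7 above and PGK1). All 94 libraries include those of other studies with only 702, 7196 and 8531 such genes. With all 94, 0 genes passed (limma, 221 at an unadjusted p under 0.05). With the 10 vehicle libraries alone the 1 gene that passed was HK2, while all 6 genes of the main result lost their calls.

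HK2, a hexokinase that commits glucose to glycolysis, had the largest difference of the list. Its FPKM was 26.9, 48.4, 43.5, 33.6 and 62.5 in cage 3, and 10.1, 10.2, 4.21, 9.57 and 6.66 in cage 2. The untreated tumors ranged from 3.67 to 30.8, so they spanned cage 2 and reached into cage 3. The log2 difference of 2.26 ± 0.50 did not pass (limma adjusted p = 0.0583), although it did when cage 3 replicate 1 was left out (adjusted p = 0.0290) and with the vehicle libraries alone (adjusted p = 0.00865).

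The glucose transporters showed how much cage 3 varied within itself. SLC2A3 read 39.1, 108, 82.5, 69.0 and 115 in cage 3 and 39.1, 15.9, 17.2, 34.9 and 26.1 in cage 2. SLC2A1 read 54.9, 130.4, 125, 87.3 and 137 in cage 3 and 54.3, 35.1, 27.6, 51.9 and 39.6 in cage 2. In both genes replicate 1 of cage 3 was level with the highest tumor of cage 2, and the other 4 tumors were above it. Neither passed (log2 differences 1.59 and 1.30, limma adjusted p = 0.0844 and 0.102).

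Further down the pathway, EGLN3, an oxygen-sensing prolyl hydroxylase, differed by 1.12 and PDK1, a kinase that inhibits pyruvate dehydrogenase, by 0.89. The glycolytic enzymes ENO2 and PGK1 differed by 0.94 and 0.50, VEGFA, the angiogenic factor, by 0.84, and NDRG1 by 1.30. The abundant enzymes LDHA, ALDOA and ENO1 differed by only 0.19, 0.21 and 0.13, each at an unadjusted p under 0.05. CA9, a carbonic anhydrase often used as a hypoxia marker, had a mean FPKM of 63.7 in cage 2 and 72.5 in cage 3 (log2 difference 0.16, unadjusted p = 0.59 in limma), and EGLN1 and P4HA2 differed by 0.06 and -0.02.

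**Figure D2:**
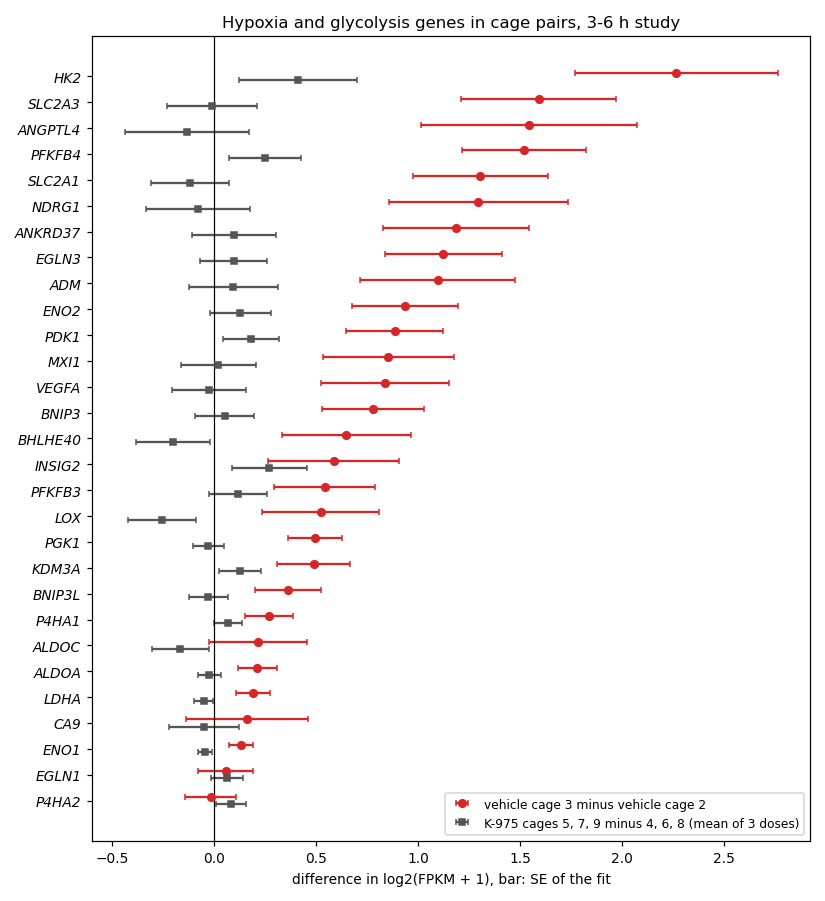
Differences in log2(FPKM + 1) of the 29 hypoxia and glycolysis genes between vehicle cages 3 and 2 (red circles) and between K-975 cages 5, 7, 9 and 4, 6, 8 (grey squares), bars showing the SE of the fit. The red values run from -0.02 for P4HA2 to 2.26 for HK2, and the grey values lie around 0.

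Per tumor, the mean log2(FPKM + 1) of the 29 genes was 5.86, 6.46, 6.38, 6.09 and 6.61 in cage 3. It was 5.81, 5.51, 5.13, 5.72 and 5.43 in cage 2 and 5.72, 5.94, 5.05, 6.00 and 5.63 in the untreated cage. Vehicle cages 3 and 2 did not overlap, but the gap was narrow, and 2 untreated tumors exceeded the lowest tumor of cage 3. Set against the untreated cage, the median member was 0.49 higher in cage 3 and 0.13 lower in cage 2 (median -0.13). These comparisons share the vehicle or untreated tumors with the first and are not independent of it.

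Inflammatory genes, mostly targets of NF-kappaB, had the highest list median, 0.84. All 24 members tested of 26 had a positive difference, and 9 were higher and 0 lower at an unadjusted p under 0.05. Of all genes, 4.89% were higher at that level, and no member of the list passed. TNFAIP3, a feedback inhibitor of NF-kappaB, read 13.8, 52.3, 45.4, 28.3 and 56.2 in cage 3 and 11.6, 9.03, 6.77, 17.0 and 15.8 in cage 2 (log2 difference 1.54, limma adjusted p = 0.18). IL1B, a secreted cytokine, read 0.963, 21.2, 11.2, 8.03 and 15.2 in cage 3 and 3.68, 3.67, 0, 1.92 and 3.32 in cage 2 (log2 difference 1.63, limma adjusted p = 0.317). In both genes 4 tumors of cage 3 were above all of cage 2, and replicate 1 fell within its range. The chemokine genes CCL20 and CXCL8 differed by 1.57 and 1.84 with wide spread, and the acute phase gene C3 by 0.05.

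The list means of the inflammatory genes showed the same tumor apart. They were 3.93, 6.04, 5.74, 4.94 and 5.65 in cage 3 and 4.60, 4.60, 3.58, 4.18 and 4.92 in cage 2, so the cages overlapped only through replicate 1 of cage 3. Untreated tumors spanned 3.38 to 5.88. Without replicate 1 of cage 3, the list median was 1.15 and 16 members were higher at an unadjusted p under 0.05.

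Interferon response genes had a median difference of 0.39, with all 27 members tested of 29 positive. At an unadjusted p under 0.05, 7 were higher and none lower, where 4.89% of all genes were higher, and none passed. IFI27 read 243, 536, 502, 295 and 528 in cage 3 and 326, 228, 137, 330.1 and 330.4 in cage 2 (log2 difference 0.64, limma adjusted p = 0.263). IFI6, an antiviral protein, had a log2 difference of 0.73 and ISG15, a ubiquitin-like modifier, one of 0.44. The spread depended on a single tumor of each cage. Leaving out cage 2 replicate 3 gave a median of 0.23 with 2 members at that level, and leaving out cage 3 replicate 1 gave 0.59 with 18.

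**Figure D3:**
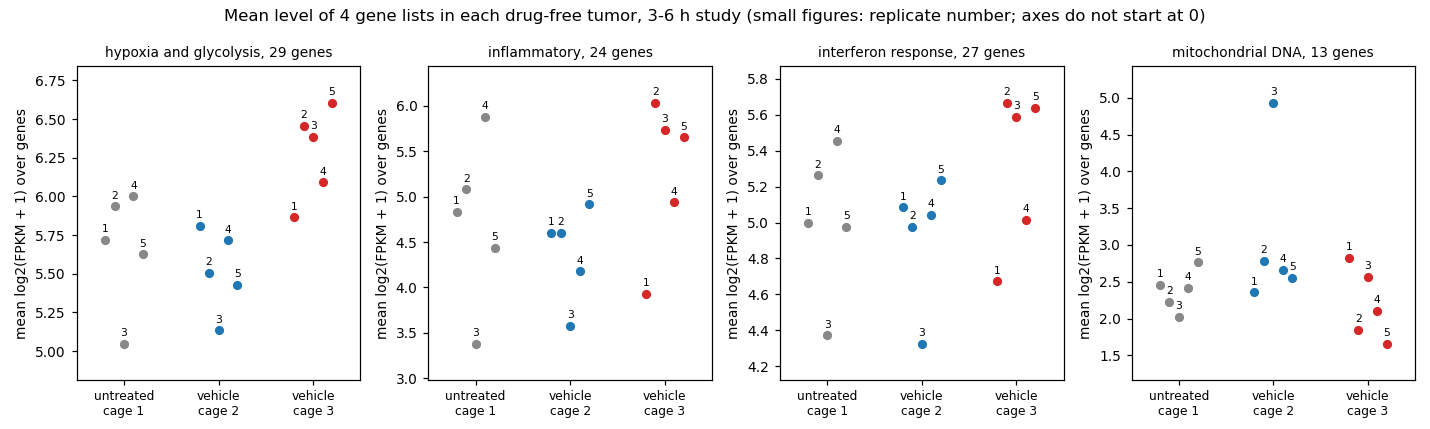
Mean log2(FPKM + 1) over the genes of 4 lists in each of the 15 drug-free tumors, with replicate numbers beside the points and axes that do not start at 0. Replicate 1 is the lowest tumor of cage 3 in the first 3 panels, and replicate 3 of cage 2 stands apart at 4.93 in the panel of genes on mitochondrial DNA.

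In the hypoxia, inflammatory and interferon lists alike, cage 3 replicate 1 was the lowest tumor of its cage, cage 2 replicate 3 the lowest of its own, and untreated replicate 3 the lowest of the untreated cage. The gene with the highest level in the leukocyte list had its lowest value within each cage in the same tumor. CD68, a lysosomal protein of macrophages that tumor cells can also make, read 91.1, 265, 186, 119 and 155 in cage 3. In cage 2 it read 164, 101, 43.6, 87.3 and 99.6 (log2 difference 0.74, unadjusted p = 0.0123 in limma). Over the 12 leukocyte genes, of which 6 were tested, the summed FPKM was 95.0 to 271 in cage 3 and 46.0 to 170 in cage 2. The defining genes MS4A1 and TYROBP were at 0 in every tumor, and PTPRC reached 0.331 in cage 3 and 0.497 in cage 2. Leukocytes of the host would be mouse cells, so levels of human genes cannot tell whether they were present. ITGAM, at 0.811 to 4.50, and CD14, at 0.484 to 2.31, were detected in every drug-free tumor. In bulk tumors, a change in the number of cells of a type and a change in RNA per cell cannot be told apart, and the part of other cells in the list values was not tested.

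Stress-responsive genes that glucocorticoids, growth factors or nutrients can raise gave a mixed picture. Of 20 glucocorticoid-response genes tested, 8 were higher at an unadjusted p under 0.05 and none lower, where 4.89% of all genes were higher, with a median of 0.33. The median was 0.19 with 5 higher without cage 3 replicate 2, and 0.47 with 10 higher without cage 3 replicate 1. NR3C1, the receptor itself, had a mean FPKM of 24.5 ± 3.77 in cage 2 and 39.7 ± 7.94 in cage 3 (log2 difference 0.67, limma adjusted p = 0.0844). The classical target genes FKBP5 and TSC22D3 differed by 0.00 and 0.11, and 3 of the 8 higher genes (BIRC3, TNFAIP3 and NFKBIA) are also on the inflammatory list. Of 24 immediate early genes, 6 were higher, among them FOSL1 (1.31), KLF6 (0.53) and NR4A1 (0.88), and FOS and EGR1 had differences of 0.66 and 0.48 at unadjusted p-values of 0.078 and 0.13.

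Genes of fasting and insulin signalling included FOXO targets, as FBXO32 is. IRS2, an adaptor of the insulin receptor, read 15.0, 28.4, 16.4, 15.4 and 17.1 in cage 3 and 13.0, 13.7, 10.7, 12.2 and 9.47 in cage 2, without overlap (log2 difference 0.57, limma adjusted p = 0.105). CCNG2 and BCL6 differed by 0.70 and 0.53, whereas TXNIP, which follows intracellular glucose, had a difference of -0.41 (unadjusted p = 0.16 in limma). Of the 17 members tested, 6 were higher and 2 lower (FOXO1 and ARRDC4) at an unadjusted p under 0.05. Of all genes, 4.89% were higher and 4.71% lower at that level.

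Genes of lipid synthesis had small negative differences that rested in part on single tumors. Of 24 sterol synthesis genes tested, 3 had a positive difference, 5 were lower and 0 higher at an unadjusted p under 0.05, where 4.71% of all genes were lower, and none passed (median -0.15). IDI1 and DHCR7, enzymes of the pathway, differed by -0.48 and -0.35, and SREBF2, a transcription factor that drives it, by -0.02. Among 15 fatty acid synthesis genes, 3 were lower and 0 higher (median -0.16), with FASN at -0.30 and ACLY at -0.18. Without cage 3 replicate 2 the medians were -0.04 and -0.07, with 3 sterol and 0 fatty acid genes lower at that level, and with the vehicle libraries alone 0 fatty acid genes were lower.

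Among markers of the mesothelial lineage, KRT7 read 588, 313, 351, 535 and 410.4 in cage 3 and 568, 763, 653, 689 and 426 in cage 2, which overlapped (log2 difference -0.51, limma adjusted p = 0.126). LRRN4 and WT1 differed by -0.42 and -0.25, and 4 of 16 markers were lower and none higher at an unadjusted p under 0.05, where 4.71% of all genes were lower. The list median was -0.10, and it was -0.06 with 2 markers lower without cage 3 replicate 2. MSLN and VIM differed by -0.07 and 0.03.

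The remaining lists differed in their medians, and none had a gene past the threshold. The median of 23 nuclear genes of oxidative phosphorylation was 0.00 (value -0.000704), that of 20 ribosomal protein genes was 0.06, and that of 20 p53 targets -0.03. The 6 clock activators, which include BMAL1 and CLOCK, had a median of 0.27, and none reached an unadjusted p under 0.05. The 13 clock repressors and output genes had a median of 0.22 with 11 positive, and 2 reached it: NR1D1 at 0.60 and BHLHE40 at 0.65, the second being also a hypoxia gene. Of all genes, 4.89% were higher and 4.71% lower at that level. PER1 and DBP differed by 0.30 and -0.35 (unadjusted p = 0.45 and 0.44 in limma). Heat shock genes had a median of -0.04, with DNAJA1, HSPA8, AHSA1 and STIP1 lower at an unadjusted p under 0.05, and HSPA6 at 1.05 with an unadjusted p of 0.18.

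**Figure D4:**
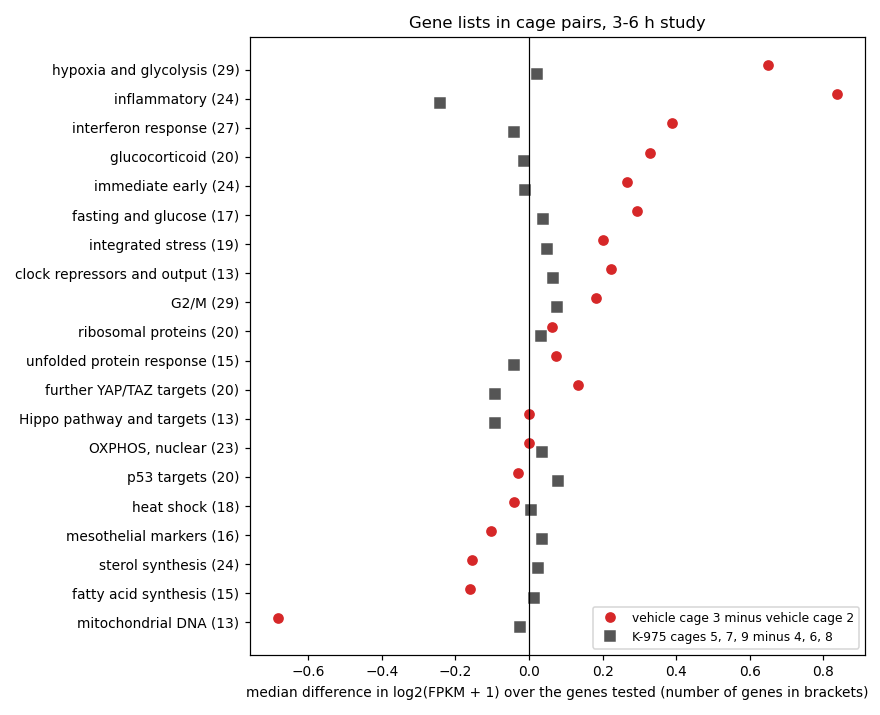
Median difference in log2(FPKM + 1) over the tested genes of 20 lists, for vehicle cage 3 minus cage 2 (red circles) and for K-975 cages 5, 7, 9 minus 4, 6, 8 (grey squares). The red values run from -0.68 for genes on mitochondrial DNA to 0.84 for inflammatory genes, and the Hippo list lies at 0.

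The 13 genes on mitochondrial DNA had the lowest list median, -0.68, and 0 of 13 were positive. The size of this difference rested in large part on 1 tumor. The summed FPKM of these genes was 467 in cage 2 replicate 3 and 75.9 to 108 in the other 4 tumors of that cage, and MT-CO1, a subunit of cytochrome oxidase, read 49.9 in that tumor against 7.59 to 9.26. Without that tumor the median was -0.30, still negative. Against the untreated cage the list median was 0.67 for cage 2 and -0.08 for cage 3. Only MT-ND2 reached an unadjusted p under 0.05 (log2 difference -1.26, limma adjusted p = 0.473).

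Targets of the YAP1-TEAD pathway were compared because they are the readout of the drug given in the other arms, K-975, a covalent inhibitor of TEAD proteins. Of the 13 Hippo pathway genes and targets, none passed and none reached an unadjusted p under 0.05, with a median of 0.00 (value -0.000879). A second list of 20 further YAP and TAZ target genes had a median of 0.13 with 15 positive. Of its members, 5 were higher at an unadjusted p under 0.05 (IGFBP3, NT5E, F3, NUAK2 and ASAP1), where 4.89% of all genes were higher, 1 was lower (AJUBA), and none passed. NT5E, an ectoenzyme that makes adenosine, had the mean FPKM 101 ± 35.1 in cage 2 and 178 ± 88.1 in cage 3 (SD, n = 5 each), with a log2 difference of 0.75 (limma adjusted p = 0.343). The count of higher members fell to 1 without cage 3 replicate 2 and was 7 without cage 3 replicate 1. On the first list, CCN2, a direct target, read 9.57, 11.3, 7.70, 12.6 and 8.08 in cage 3 and 10.5, 10.5, 8.90, 9.69 and 9.17 in cage 2, and the cages overlapped fully (log2 difference 0.00 ± 0.20). CCN1 differed by 0.24 ± 0.15, ANKRD1 by 0.05, AXL by 0.21, TEAD1 by -0.15 and YAP1 by -0.12. The deR score, the mean rank of 249 positive minus that of 233 negative TEAD effectors within a library, was 0.213 ± 0.00873 in cage 3, 0.209 ± 0.0205 in cage 2 and 0.217 ± 0.00916 in the untreated cage (SD, n = 5 each). Cage 3 exceeded cage 2 by 0.00403 (exact permutation test, two-sided p = 0.706, also 0.706 after adjustment over 3 comparisons, smallest possible p 0.00794).

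Against the untreated cage, cage 2 gave no gene past the threshold in limma, with 491 genes at an unadjusted p under 0.05 (3.88%). MED7 and IMMT were among the smallest p-values, with negative differences (log2 differences -0.76 and -0.53, adjusted p = 0.82 each). IMMT, which shapes the inner membrane of mitochondria, read 42.6, 40.5, 44.2, 49.8 and 41.5 in cage 2, 60.7 to 66.9 in the untreated cage and 45.5 to 58.8 in cage 3. Both vehicle cages lay below the untreated one for this gene without overlap. Cage 3 gave 3 genes against the untreated cage, FBXO32, FNDC3B and FNIP1, all higher (0.0237% of genes, limma adjusted p = 0.00567, 0.0284 and 0.0284), and 1017 genes at an unadjusted p under 0.05 (8.04%). With relative depth as a covariate, none of these 3 calls was left. The F test over the 3 drug-free cages called the same 3 genes (0.0237%). The comparisons share libraries, so their counts are not independent. Cage 3 stood above both other cages without overlap in 25 genes (0.198%) and below both in 16 (0.126%).

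Whole transcriptomes were compared by distance. Distance was taken as 1 minus the Pearson correlation of log2(FPKM + 1). The mean between the cages exceeded that within them by 0.00210 (exact permutation test, two-sided p = 0.143, 0.310 after adjustment over 3 pairs, smallest possible p 0.0159). It was 0.000662 without cage 2 replicate 3 and 0.00422 without cage 3 replicate 1 (exact permutation p = 0.0317, 0.0714 after adjustment). For cage 2 and the untreated cage the value was -0.000538 (exact permutation p = 0.587), and for cage 3 and the untreated cage 0.00141 (exact permutation p = 0.206). The median SD of a gene within a cage, on the log2 scale, was 0.269 in cage 3, 0.253 in cage 2 and 0.224 in the untreated cage.

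The K-975 arms of the same study offer a comparison with no shared library, though not a like one. If the 2 cages of a dose were taken at different times, they also differ in time under K-975, which no vehicle tumor received. Cage, time of sampling and time under K-975 cannot be told apart there. Each dose had 2 cages, 4 and 5 for 200 mg/kg, 6 and 7 for 100 mg/kg, 8 and 9 for 30 mg/kg. Titles number cages 5, 7 and 9 in the same run as vehicle cage 3 (81 to 100). Relative depth was 0.653 to 0.970 in cage 5 and 1.04 to 1.55 in cage 4, without overlap. It was 0.470 to 0.855 in cage 7 and 0.822 to 1.42 in cage 6. For the low dose it was 0.915 to 1.12 in cage 9 and 0.755 to 1.06 in cage 8. Depth therefore went with cage at 200 and 100 mg/kg, and the differences below were not adjusted for it. Cages 5, 7 and 9 minus 4, 6 and 8 gave 9 genes past the threshold (0.0711%), 4 higher and 5 lower. FNIP1 was among them, with a log2 difference of 0.25 ± 0.04 (limma adjusted p = 0.00842), and it was the 1 gene called in both comparisons. By dose, from high to low, its difference was 0.25, 0.40 and 0.10. The mean FPKM of FNIP1 was 89.7 ± 7.04 in cage 5 and 75.6 ± 6.67 in cage 4, 103 ± 7.30 in cage 7 and 78.1 ± 4.83 in cage 6, and 81.1 ± 12.5 in cage 9 and 75.0 ± 2.33 in cage 8 (SD, n = 5 each). The vehicle difference exceeded that of the K-975 arms by 0.21 ± 0.09 (unadjusted p = 0.0200 and adjusted p = 0.442 in limma).

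FLCN, the binding partner of FNIP1, was also called in the K-975 arms (log2 difference 0.43 ± 0.08, limma adjusted p = 0.00842). In the vehicle cages it read 24.8, 30.3, 34.9, 27.9 and 28.6 in cage 3 and 23.2, 22.7, 17.8, 22.3 and 23.4 in cage 2. Those cages did not overlap, and the difference of 0.40 did not pass (limma unadjusted p = 0.00365, adjusted p = 0.241). The vehicle and K-975 differences of FLCN were within 0.03 of each other (difference -0.03 ± 0.15, unadjusted p = 0.861 in limma). PROSER2, the third gene named there, was lower by 0.44 in the K-975 arms (difference -0.44, adjusted p = 0.0100) and differed by 0.00 between the vehicle cages.

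**Figure D5:**
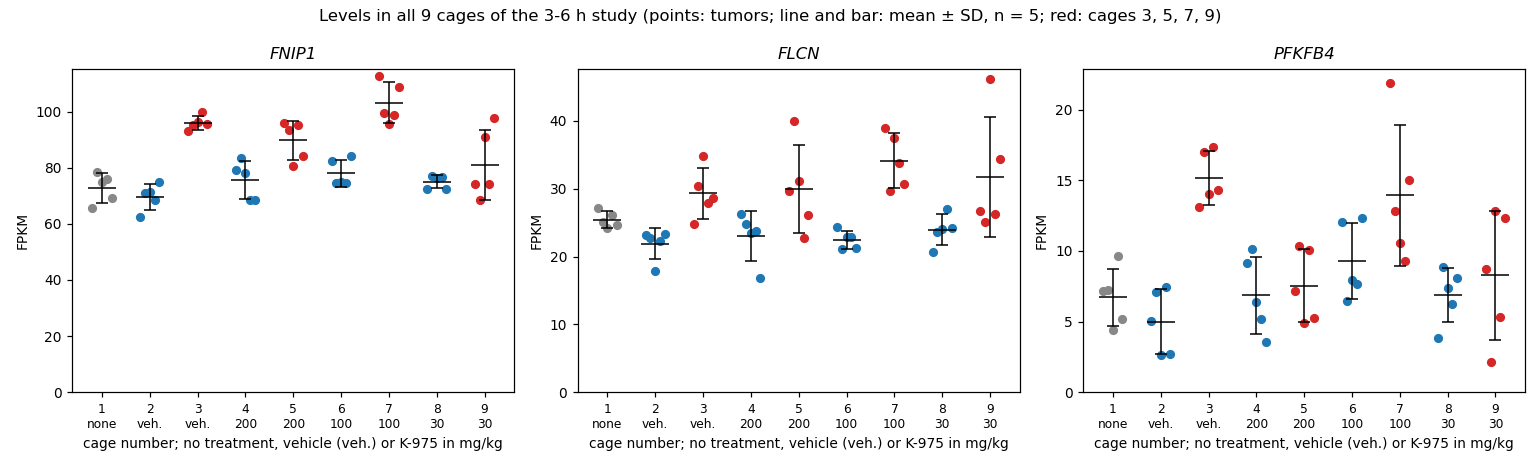
FPKM of FNIP1, FLCN and PFKFB4 in each tumor of all 9 cages of the 3-6 h study, with the mean and SD of 5 tumors and axes from 0, and cages 3, 5, 7 and 9 in red. FNIP1 is higher on average in the red cage of every pair, while PFKFB4 separates fully only in the vehicle pair.

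Other genes and lists did not all behave alike in the 2 arms. PFKFB4 differed by 0.25 in the K-975 arms and HK2 by 0.41 (unadjusted p = 0.163 and 0.158 in limma), and FNDC3B by -0.01. FBXO32 differed by 0.46 (unadjusted p = 0.0171), with 0.97 at 100 mg/kg and -0.06 at 30 mg/kg. The hypoxia and glycolysis list had a median of 0.02 there, and none of its members passed an unadjusted threshold of 0.05. In these arms 1107 genes did (8.75%), of which 623 were higher (4.92%) and 484 lower (3.82%). The inflammatory list had a median of -0.24 and the interferon list one of -0.04. The Hippo list had a median of -0.09 with 5 of 13 members lower at that level, the further YAP and TAZ targets one of -0.09 with 3 of 20 lower, and the p53 targets one of 0.08 with 7 of 20 higher. The test of the difference between the 2 arms called no gene (limma), and 1160 genes had an unadjusted p under 0.05 (9.17%), 540 of them more positive in the vehicle pair (4.27%) and 620 more negative (4.9%). Of the 29 hypoxia genes, 21 were more positive in the vehicle pair at that level and 0 more negative, as were 14 of 24 inflammatory and 6 of 27 interferon genes. These counts use the same vehicle libraries as the first comparison and are not independent of it. The smallest p-values belonged to GPATCH11, GPRC5C and ADSS1, all more negative in the vehicle pair (differences -1.57, -0.89 and -1.37).

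Across all genes tested, 50.6% had the same sign in the vehicle pair and in the K-975 arms, with a Pearson r of -0.0273 and a Spearman rho of 0.00167 over 12654 genes, which are not independent. Of the 1215 vehicle-pair genes with an unadjusted p under 0.05, 630 (51.9%) had the same sign. At that level in both comparisons were 119 genes, 76 of them with the same sign. The same-sign genes with the smallest p-values in the vehicle pair were FNIP1, FBXO32 and NR3C1. The set also held FOXO3, SQSTM1, an autophagy receptor, and CREBRF, picked from the 76 for naming after their values were seen. For FOXO3, SQSTM1 and CREBRF the limma adjusted p-values in the vehicle pair were 0.328, 0.256 and 0.278. None of them passed in the K-975 arms either.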

How the data were processed

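RNA of the tumors was preserved in RNAlater, and libraries were made with KAPA RNA HyperPrep and HyperCap target enrichment, so a level also depends on capture, and sequenced as paired ends. The authors deposited FPKM, 1 value per gene and library. Submitters' processing notes name STAR and GRCh38. The quantifier, read counts and treatment of mouse reads were not given in the sources used here. FPKM are scaled to each library's total, so 1 dominant class of transcripts lowers all others.

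Of 20555 entries, 316 repeats of a gene ID were left out and 20239 were kept, and 32 blank cells were read as 0. The filter kept 12654 genes that reached an FPKM of 1 in 4 or more of the 45 libraries of the 3-6 h study. Differences were tested on log2(FPKM + 1), which understates changes of low genes, with limma 3.58.1 in R 4.3.3 (1 coefficient per cage, eBayes with trend and robust, 36 residual degrees of freedom). Replicates are separate mice, 1 library each, numbered in accession order, and no pair of the 15 drug-free libraries correlated above 0.978. Scores and distances were tested by exact permutation in Python 3.11.15 (scipy 1.17.1). The fit was tested on simulated data.

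Members and gene lists were chosen with earlier results of these data known. Genes are named by a rule: those past the threshold, the next 10 by p-value, the 3 smallest p-values per other comparison and list, all Hippo and clock genes. Others named were chosen after their values were seen. Some genes that the rule names are not reported here. Promoter sequences are from RefSeq. Alternatives covered the libraries in the fit, pseudocount, filter, scaling, depth, eBayes and single tumors.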

Additional observations from a re-analysis of the deposited data

Results flagged for a closer look

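In 4 of 72 groups of 5 tumors examined, the highest or lowest tumor lay farther from its nearest neighbour than Dixon's 95% critical value of 0.71 times the range allows, and chance gives about 1 in 20 such groups. All 4 concern vehicle cage 2 replicate 3. Its log2(FPKM + 1) of FNDC3B was 8.08, below the next tumor at 8.25, and that of FLCN was 4.23, below the next at 4.54. The mean over the interferon response genes was 4.33 in this tumor, and the next tumor of the cage had 4.97. The mean over the 13 genes on mitochondrial DNA was 4.93, and the next highest tumor had 2.79.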

How the results depend on the processing

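No paired analysis was possible because the labels give no replicate numbers that could pair tumors across cages. For cage 3 minus cage 2, the 6 genes past the threshold became 1 with only the 10 vehicle libraries in the fit (HK2, none of the 6 kept), 4 with the 15 drug-free libraries (3 higher, 1 lower, 3 of the 6 kept), 0 with all 94 libraries, 43 with the 91 libraries that had at least 10000 genes at an FPKM of 1 (35 higher, 8 lower, all 6 kept), and 11 with a filter at FPKM 5. The other alternatives of filter, pseudocount, scaling, depth and eBayes gave 5 to 8. Leaving out 1 tumor gave 1 to 76 genes: 76 without cage 3 replicate 1 (51 higher, 25 lower, all 6 kept), 3 without cage 2 replicate 2, 2 without cage 2 replicate 1, cage 3 replicate 4 or cage 3 replicate 5, and 1 without cage 2 replicate 3 or cage 3 replicate 3. The cause was not tested. For cage 3 minus the untreated cage, the 3 genes became 0 with 15 libraries, with only the groups compared, with all 94 libraries and with depth as a covariate, 6 with 91 libraries, 1 with plain eBayes, and 0 to 6 without single tumors. The F test gave 0 with 15 and with 94 libraries, 28 with 91, and 2 to 11 without single tumors. The K-975 arms gave 0 genes with 94 libraries, 16 with 91, 14 with median centring and 5 with plain eBayes. The difference between arms gave 0 to 1 without single tumors, and cage 2 minus the untreated cage gave 0 in every alternative run. Of 21 alternatives, FNIP1 lost its call in 2, FBXO32 in 6, MAFF and PFKFB4 in 9, HKDC1 in 12 and FNDC3B in 15, and none changed direction. The median of the hypoxia list ranged from 0.56 to 0.80, that of the inflammatory list from 0.66 to 1.15 and that of the interferon list from 0.23 to 0.59, whereas the Hippo list ranged from -0.05 to 0.07. The medians ranged from -0.20 to -0.04 for sterol synthesis, -0.18 to -0.07 for fatty acid synthesis, 0.19 to 0.53 for the glucocorticoid list and 0.11 to 0.16 for the further YAP and TAZ targets. The deR difference of the vehicle cages turned to -0.00206 without cage 2 replicate 1 (range without single tumors -0.00206 to 0.0104) and was 0.0136 with z-scores, which are on another scale. Leaving out 1 tumor moved the excess distance of the vehicle cages between 0.000662 and 0.00422. For cage 2 and the untreated cage it ranged from -0.00151 to 0.000764, and for cage 3 and the untreated cage from -0.000468 to 0.00397. FPKM without counts set no limit that depth alone would give.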

Other observations

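The integrated stress and antioxidant lists held single genes of low p-value, none past the threshold (limma). HMOX1, which breaks down heme, read 5.57, 8.47, 10.3, 13.2 and 11.4 in cage 3 and 4.39, 4.71, 5.98, 4.64 and 2.63 in cage 2 (log2 difference 0.96, adjusted p = 0.0925). The cages overlapped at 1 tumor, and the 21 tested genes of its list had a median of 0.02. CEBPB, a transcription factor of the stress and acute phase responses, read 35.3, 69.1, 54.2, 49.7 and 81.4 in cage 3 and 34.4, 34.5, 28.6, 31.5 and 37.4 in cage 2 (log2 difference 0.73, adjusted p = 0.107). SHMT2, a mitochondrial enzyme of serine metabolism, differed by 0.32 (adjusted p = 0.102), while ATF4 and ASNS differed by 0.03 and 0.24.

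Cell cycle genes differed little in these cages. Of 29 genes of G2 and mitosis, 24 had a positive difference with a median of 0.18, and 2, KIF2C and CENPA, were higher at an unadjusted p under 0.05, where 4.89% of all genes were higher. Of 30 genes of G1 and S phase, 17 were positive with a median of 0.04. MKI67, the common proliferation marker, differed by 0.21 (unadjusted p = 0.13 in limma).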
